A study of Mus musculus with 6 samples.

Results

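Hedgehog pathway genes were followed in sorted newborn mouse kidney cells in which Bdkrb2, the gene of the bradykinin B2 receptor, was deleted or intact. The 9 genes are Shh, Ihh, Ptch1, Smo, Gli1, Gli2, Gli3, Hhip and Sufu, taken as every probe whose accession maps to one of these symbols. They were 9 of 20887 named genes and 12 of 55681 probes on the array. All cells are labelled as collecting duct cells, were sorted for GFP and dsRED from C57BL/6 pups at postnatal day 1, and came from matings on food with 5% sodium, so that both groups had gestational salt stress. The 3 KO samples were from pups with both Bdkrb2 alleles floxed, and the 3 WT samples from pups with unfloxed Bdkrb2 (+/+). Pups of both groups carried Hoxb7cre and the R26RtdTomato reporter. Hoxb7cre acts in the ureteric bud lineage, so the deletion is not one of the whole animal. The series text calls the replicates biological, the number of animals in a sample is not stated, and the p-values measure the spread between these samples. Litter and genotype cannot be told apart.

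Hedgehog ligands are secreted proteins that bind Patched and so release Smoothened, which then turns the Gli factors from repressors into activators at the primary cilium. In the developing kidney and ureter the ligand is known from epithelium of the ureteric lineage, and the response from the mesenchyme around it. Gli1, Ptch1 and Hhip are themselves transcribed in cells that respond, which is why they are widely used as readouts of the pathway, while Gli3 acts largely as a repressor where ligand is absent.

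Each array held the sample's RNA in Cy5 and the RNA of WT replicate 1 in Cy3. Values below are log2 ratios of Cy5 over Cy3 unless a sentence says otherwise, so 0 means the level of WT replicate 1. Spots well above background in Cy5 made up 56.6% to 57.5% of a KO array and 49.8% to 52.7% of a WT array. Probes entered the test with 3 or more of the 6 arrays well above background in Cy5, and were called at an adjusted p under 0.05 in limma over all 29808 probes tested. The array of WT replicate 1 sets that RNA against itself, and there 95% of tested probes lay within 0.296 of 0. KO replicate 1 stood apart, with 1251 probes more than 1 log2 unit from the mean of the other 2 KO arrays, against 187 and 125 on the other KO arrays and 53 to 86 on the WT arrays. Values without it are given for Ptch1, for both Smo probes and for the calls in the list of signal relay genes. The probe of Bdkrb2 itself was well above background on 0 of 6 arrays and gives no check of the genotype labels. The slide's upper row held all KO arrays and WT replicate 1, and its lower row held WT replicates 2 and 3, so a comparison within a row is that of the KO arrays with WT replicate 1 alone.

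The transcription factors were higher in KO cells, while the ligand Ihh was lower and Shh gave no usable signal. Gli1, Gli2 and Gli3 all rose, and so did the signal transducer Smo and the ligand-binding inhibitor Hhip. The receptor Ptch1 lay lower on all KO arrays but was not called, and the brake Sufu was not called either. Of the 10 member probes tested, 6 were called. Of these 6, 5 were higher and 1 was lower, on a background where 25.3% of all tested probes were called, 11.2% higher and 14.2% lower. Under median centring of each array in place of loess, 77.2% of all calls were higher in KO, against 44.0% here. Gli2 entered the test through the KO arrays alone, so the count over tested members is not one over all 9 genes. The spread of every probe is drawn in the plot of ratios by array.

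**Figure D1:**
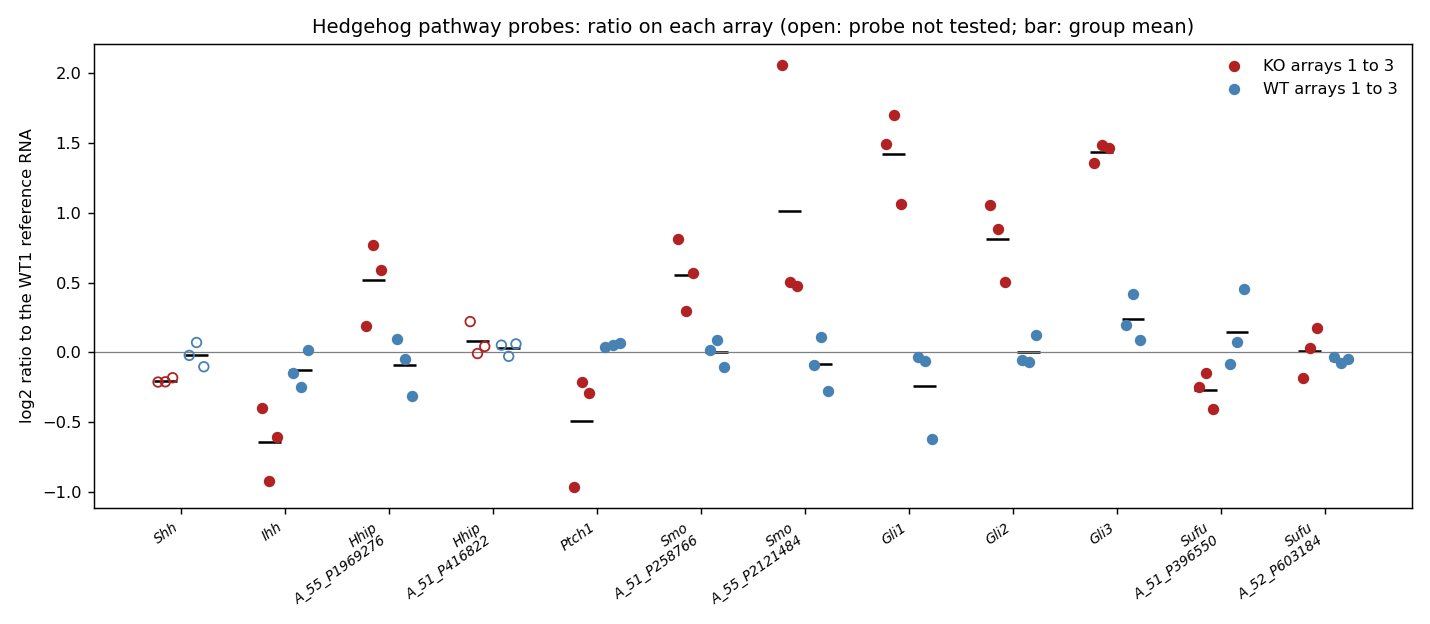
Log2 ratio to the WT1 reference RNA (y axis) of each of the 12 probes of the 9 Hedgehog genes (x axis), with KO arrays 1 to 3 in red left of WT arrays 1 to 3 in blue, bars for group means and open circles for the 2 probes that were not tested. The Gli1 probe lies between 1.06 and 1.70 on the KO arrays and between -0.62 and -0.03 on the WT arrays, while Ptch1 lies between -0.96 and -0.21 on the KO arrays and between 0.04 and 0.07 on the WT arrays.

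Shh encodes the ligand that the medullary collecting duct and ureter epithelium are known to make. Its only probe (A_52_P49014) was printed as 10 spots, so the array gave 30 readings per group. In Cy5, 1 of 30 spots in KO and 2 of 30 in WT were well above background. All of these were the same printed position on different arrays, flagged as an outlier there and left out of the ratios. That position also gave the highest spot of each group. The median spot was 1.06, 1.07 and 1.06 times its local background on the KO arrays, against 1.19, 1.23 and 1.16 times on the WT arrays. The signal therefore sat close to background in both groups, and the spots ranged from 0.877 to 1.47 times background in KO and from 1.03 to 1.62 times in WT. The ratios were -0.21, -0.21 and -0.18 in KO and -0.02, 0.07 and -0.10 in WT. They do not overlap, but the probe was not tested and neither a fold nor a direction is given for Shh. An Shh transcript below this probe's detection was not measurable here.

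**Figure D2:**
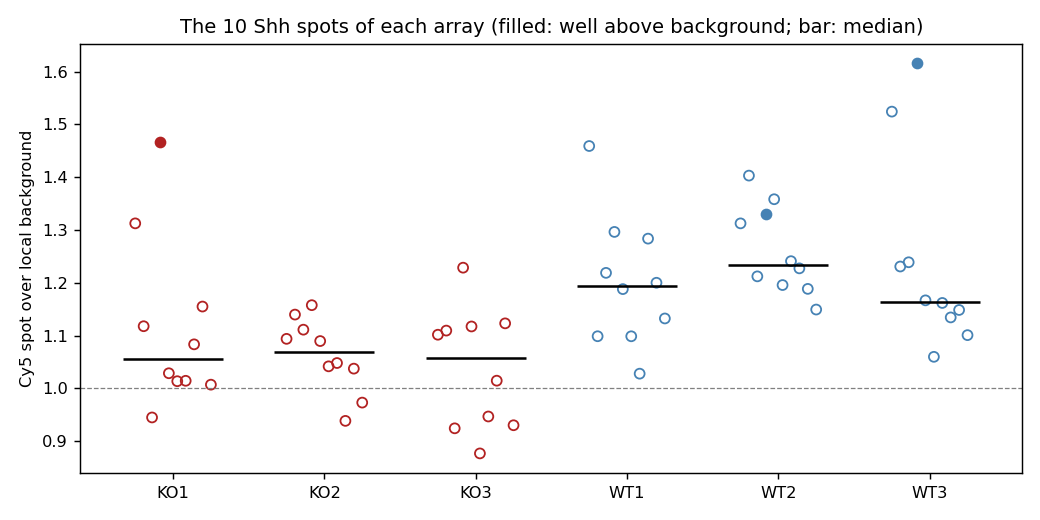
Cy5 spot intensity over local background (y axis) of the 10 Shh spots on each array (x axis), with KO arrays in red left of WT arrays in blue, filled points for spots well above background and bars for array medians. The medians lie between 1.06 and 1.07 on the KO arrays and between 1.16 and 1.23 on the WT arrays, close to the dashed line at 1.

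Ihh, the ligand best known from growing cartilage, was 1.43-fold lower in KO cells. Its ratios were -0.40, -0.92 and -0.61 in KO and -0.15, -0.25 and 0.01 in WT, so every KO array lay below every WT array. The difference was -0.51 ± 0.15 on the log2 scale (SE, n = 3 per group), with a limma adjusted p of 0.0404. Its signal was low, at 2.64 to 3.99 times local background in KO and 2.87 to 3.99 times in WT. This call was lost when any one array other than KO replicate 1 was left out, with the adjusted p then between 0.0662 and 0.155. It was also lost within the upper slide row (-0.49, adjusted p = 0.266), with Agilent's processed ratios (-0.77, adjusted p = 0.0896) and under median centring (-0.35, adjusted p = 0.231).

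Hhip, a membrane protein that binds Hedgehog ligands and holds them back, was 1.52-fold higher in KO cells by its probe A_55_P1969276. The ratios were 0.19, 0.77 and 0.59 in KO and 0.10, -0.05 and -0.31 in WT. The groups did not overlap, although KO replicate 1 and WT replicate 1 lay near each other. The difference was 0.61 ± 0.17 with a limma adjusted p of 0.0374. Its signal was low, at 2.51 to 4.72 times local background in KO and 1.39 to 1.87 times in WT. Without any one array other than KO replicate 1 the call was lost, at adjusted p values of 0.0562 to 0.147, and within the upper slide row the difference was 0.42 (adjusted p = 0.369). Agilent's processed ratios gave 1.14 with an adjusted p of 0.105, and normexp without offset gave 1.02 (limma adjusted p = 0.0521). The fold of this dim probe therefore depends on the processing. The other Hhip probe (A_51_P416822) did not reach the well-above-background mark on any array and was not tested. Its ratios were 0.22, -0.01 and 0.04 in KO and 0.05, -0.03 and 0.06 in WT.

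Ptch1 encodes the receptor that ligand binding inactivates, and it is also a standard target of the pathway. Ratios were -0.96, -0.21 and -0.29 in KO, against 0.04, 0.05 and 0.07 in WT. Every KO array lay below every WT array, and the WT arrays lay within 0.014 (SD) of one another, while the KO arrays had an SD of 0.411. The difference of -0.54 ± 0.19 did not pass the test (limma adjusted p = 0.0740). KO replicate 1 gave the lowest value, and without it the difference was -0.31 and the probe was called (adjusted p = 0.0393). Array weights also gave a call, at -0.36 (adjusted p = 0.0395). Both of these settings called more of all probes too, 9495 and 10319 against 7550. No other setting run called Ptch1, with for example -0.94 by Agilent's processed ratios (limma adjusted p = 0.191) and -0.36 under median centring (0.342). The sign of Ptch1 was negative under every setting run. The Ptch1 signal was low, at 1.75 to 3.74 times local background in KO and 2.96 to 3.44 times in WT.

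Smo, the membrane protein that carries the signal into the cell, had 2 probes. At the brighter one (A_51_P258766) the ratios were 0.81, 0.29 and 0.57 in KO and 0.02, 0.09 and -0.10 in WT. KO was 1.47-fold higher, with a difference of 0.56 ± 0.14 and a limma adjusted p of 0.0261. The other probe (A_55_P2121484) gave 2.06, 0.51 and 0.47 in KO and -0.09, 0.11 and -0.28 in WT. KO replicate 1 lay far above the other KO arrays there, and the difference of 1.10 ± 0.39 was not called (adjusted p = 0.0769). Without KO replicate 1 both Smo probes were called, at 0.43 (adjusted p = 0.0222) and 0.58 (adjusted p = 0.0072). The call at A_51_P258766 was lost without KO replicate 3 or without any one of the WT arrays (adjusted p from 0.0542 to 0.111), within the upper slide row (difference 0.54, adjusted p = 0.209) and with Agilent's processed ratios (0.55, adjusted p = 0.0681).

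Gli1, the activator that cells make in response to the signal, was 3.16-fold higher in KO cells. The ratios were 1.50, 1.70 and 1.06 in KO and -0.03, -0.06 and -0.62 in WT. Every KO array lay more than 1 log2 unit above the reference RNA, and the lowest value was that of WT replicate 3. The difference was 1.66 ± 0.21, with a limma adjusted p of 0.0014. Processed Cy5 intensities were 1083, 1226 and 811 on the KO arrays and 135, 172 and 71.9 on the WT arrays. Within the upper slide row the difference was 1.45 (adjusted p = 0.0390), and Gli1 kept its call under every setting run.

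Gli3, whose protein is cut to a repressor when the pathway is off, was 2.30-fold higher in KO cells. Its ratios were 1.35, 1.49 and 1.46 in KO, against 0.20, 0.42 and 0.09 in WT. The 3 KO arrays lay close together, with an SD of 0.070, and far above all WT arrays. The difference was 1.20 ± 0.12, with a limma adjusted p of 0.0005. Gli3 also kept its call under every setting run, and within the upper slide row it differed by 1.24 (adjusted p = 0.0161). On the array that sets the WT replicate 1 RNA against itself the Gli3 ratio was 0.20, although both channels held the same RNA.

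Gli2, the main activator that acts before Gli1 is induced, was well above background in KO only. Its probe was well above background on 3 of 3 KO arrays and on 0 of 3 WT arrays. The ratios were 1.06, 0.89 and 0.50 in KO and -0.05, -0.07 and 0.13 in WT, without overlap. The fitted difference was 0.81 ± 0.15 (limma adjusted p = 0.0072), and no fold is given because the WT level was not well above background. Leaving out any one array kept the Gli2 call. Within the upper slide row the difference was 0.87 and the call was lost (adjusted p = 0.0789).

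Sufu, the protein that holds Gli factors in the cytoplasm, had 2 dim probes. Probe A_51_P396550 gave -0.25, -0.15 and -0.41 in KO and -0.08, 0.07 and 0.46 in WT, and its difference of -0.41 ± 0.15 was not called (limma adjusted p = 0.0877). Probe A_52_P603184 gave -0.18, 0.03 and 0.18 in KO and -0.03, -0.07 and -0.05 in WT. The groups overlapped there and the difference was 0.06 ± 0.12 (adjusted p = 0.732). The 2 probes differed in sign here, but both were negative with Agilent's processed ratios, with the series matrix, with Cy5 alone and without KO replicate 3. With array weights A_51_P396550 was called lower, at -0.46 (adjusted p = 0.0449). Sufu signals were 1.35 to 1.76 times local background in KO and 1.37 to 1.70 times in WT.

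The ratios stand beside raw levels that cannot be set against each other across arrays. The Cy3 channel held the same WT replicate 1 RNA on all 6 arrays, yet its processed intensity was higher on the KO arrays for all 12 member probes, by 1.56 to 2.85 times. The median over all tested probes shows the same, at 386 to 439 on the KO arrays and 200 to 218 on the WT arrays. For Gli1 the reference signal was 1.96 times higher on the KO arrays, and for Gli3 it was 2.04 times higher. Hence the Cy5 level of Ptch1 was 46.0, 183 and 177 in KO and 82.9, 130 and 102 in WT, while its ratio was lower on all KO arrays. Agilent's own processed ratios, turned to log2, put Gli1 at 1.94, 1.97 and 1.57 in KO and -0.06, -0.04 and -0.84 in WT. They gave Gli3 as 1.48, 1.54 and 1.50 in KO and 0.09, 0.42 and -0.01 in WT. For Ptch1 the same source had -1.87, -0.18 and -0.32 in KO and 0.08, 0.10 and 0.28 in WT. Gli2, at 2.69, 2.45 and 2.07 in KO and -0.38, -0.44 and 0.39 in WT, is the gene whose size depends most on the processing, with a difference of 2.55 by these ratios.

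**Figure D3:**
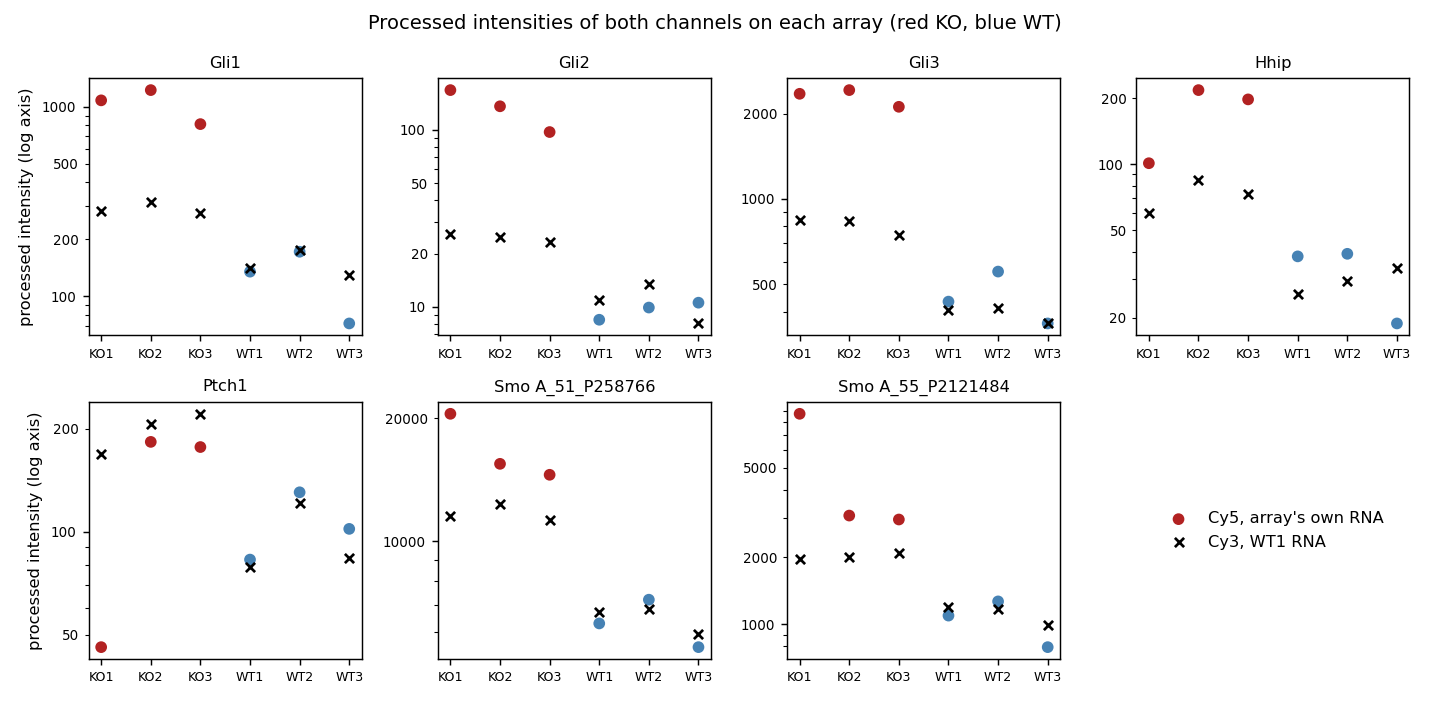
Processed intensity (y axis, log scale) of 7 Hedgehog gene probes on each array (x axis), with circles for Cy5, the array's own RNA, in red on the KO arrays left of blue on the WT arrays, and crosses for Cy3, the WT1 RNA. For Gli1 the Cy5 circles lie at 811 to 1226 on the KO arrays and at 71.9 to 172 on the WT arrays, and the crosses show that the reference signal is higher on the KO arrays too.

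Gli1 and Ptch1, both readouts of the pathway, were set against each other on each array. Gli1 minus Ptch1, a contrast added after the values were seen, was 2.46, 1.92 and 1.36 in KO and -0.07, -0.11 and -0.69 in WT. The difference was 2.20 log2 units, and the exact permutation test over arrays (2-sided) gave p = 0.1, the smallest value that 3 against 3 allows. Every KO array lay above every WT array for Gli1 and below every WT array for Ptch1. That p was therefore fixed by the choice of the contrast and adds no support. Ptch1 minus Shh differed by -0.36 with an exact permutation p of 0.2. Its sign turned under Agilent's ratios (0.49) and under Cy5 alone (0.64), and Shh was at background, so no difference between receptor and ligand is drawn from it.

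RefSeq promoter windows (assembly GRCm38.p6, 250 bases before to 50 after the start) were held for 7 of the 9 genes. Those of Gli2, Gli3 and Ptch1 are shown because the first 2 genes rose while Ptch1, the classical target, did not. The Gli2 window is chr1:119053570-119053869 on the minus strand, the Gli3 window chr13:15463473-15463772 on the plus strand, and the Ptch1 window chr13:63565686-63565985 on the minus strand, each printed 5′ to 3′ with every GC box (GGGCGG on either strand) in capitals.
Gli2: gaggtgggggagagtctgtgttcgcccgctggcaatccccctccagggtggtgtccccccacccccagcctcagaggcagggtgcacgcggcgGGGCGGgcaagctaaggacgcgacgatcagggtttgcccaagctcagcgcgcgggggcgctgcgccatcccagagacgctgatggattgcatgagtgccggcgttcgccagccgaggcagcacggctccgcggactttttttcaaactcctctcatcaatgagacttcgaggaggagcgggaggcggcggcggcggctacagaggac
Gli3: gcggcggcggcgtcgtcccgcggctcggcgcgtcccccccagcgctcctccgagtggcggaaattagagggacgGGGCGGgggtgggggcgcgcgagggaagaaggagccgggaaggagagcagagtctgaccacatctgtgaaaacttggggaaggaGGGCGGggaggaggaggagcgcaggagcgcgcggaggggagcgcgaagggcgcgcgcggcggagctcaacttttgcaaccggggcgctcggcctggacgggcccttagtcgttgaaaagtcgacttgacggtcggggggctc
Ptch1: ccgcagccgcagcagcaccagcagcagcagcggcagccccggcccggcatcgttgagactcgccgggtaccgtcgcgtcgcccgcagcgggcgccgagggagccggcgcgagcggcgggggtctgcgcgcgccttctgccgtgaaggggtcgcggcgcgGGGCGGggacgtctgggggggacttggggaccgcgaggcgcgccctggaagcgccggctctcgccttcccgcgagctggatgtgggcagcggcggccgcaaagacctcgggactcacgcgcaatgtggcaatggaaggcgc
These windows were rich in G and C, at 67.3% for Gli2, 71.0% for Gli3 and 76.3% for Ptch1, against a median of 52.7% over all windows. A GC box was present in 6 of the 7 member windows (85.7%), against 35.7% of all 32851 windows. In the other pathway lists below, 57.1% to 66.7% of windows held one, at a median of 56.3% to 66.7% G and C. A GC box is therefore not particular to the member genes. The Gli consensus GACCACCCA, searched on both strands, was in 0 of the 7 windows, exactly or with up to 1 mismatch. Over all windows 0.253% held it exactly and 6.74% held it with up to 1 mismatch. No match says only that these letters are not in this window, and the search bears on no site farther away.

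Genes for ligand release and reception moved in both directions. In this list, 11 of 12 genes were tested, of which 6 were called higher and 2 lower, with a median difference of 0.41. Over all 14752 genes tested by their brightest probe, 13.8% were called higher and 18.5% lower, and the median difference was -0.02. The co-receptor genes Boc and Gas1, whose proteins help ligand reach Patched, rose by 1.42 ± 0.13 and 1.46 ± 0.14 (limma adjusted p = 0.0005 for each). Boc had ratios of 1.30, 1.28 and 1.24 in KO and 0.05, -0.07 and -0.41 in WT. The 2 dimmer Gas1 probes gave 0.09 and 0.08 and were not called. Gpc3, a glypican that competes with Patched for ligand, rose by 1.06 ± 0.11 (adjusted p = 0.0006). The third co-receptor gene, Cdon, differed by -0.03 ± 0.11 and was not called.

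Dhh, the third Hedgehog ligand gene, fell by 1.32 on the log2 scale (SE 0.11, limma adjusted p = 0.0004), with ratios of -0.98, -1.21 and -1.13 in KO and 0.21, 0.13 and 0.32 in WT. It kept its call under every setting run, and within the upper slide row it differed by -1.31. Scube2, which helps release the lipid-bearing ligand, fell by 0.59 (adjusted p = 0.0225), and its other probe fell by 0.39 (adjusted p = 0.0253). Disp1, which exports ligand, rose by 1.00 ± 0.15, and Hhat, which attaches palmitate to it, rose by 0.67 ± 0.13 at its brighter probe, while its other probe gave 0.05 and was not called. These last 2 genes were named after their values were seen. The calls of Scube2, Disp1 and Hhat were lost within the upper slide row, and that of Scube2 also without KO replicate 2, WT replicate 1 or WT replicate 3 (adjusted p from 0.0705 to 0.0970).

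The machinery between Smo and the Gli proteins was followed by 30 genes. Of these 29 were tested, with 4 called higher, 2 called lower and a median difference of 0.02, against 13.8% called higher and 18.5% lower over all genes. Without KO replicate 1, 7 were called higher and 2 lower, while calls over all 29808 probes also rose, from 7550 to 9495. Kif7, the ciliary kinesin that organises Gli and Sufu at the tip, rose by 0.64 ± 0.11 (limma adjusted p = 0.0047), with ratios of 0.70, 0.47 and 0.63 in KO and -0.14, -0.01 and 0.05 in WT. Dync2h1, the motor of retrograde transport in cilia, rose by 0.48 ± 0.11 (adjusted p = 0.0160). Btrc, of the ligase that targets Gli proteins for processing, rose by 0.55 ± 0.11, but its other probe gave 0.00. Csnk1a1, a kinase that marks Gli proteins, rose by 0.53 ± 0.15, and its other probe gave -0.39, not called. Mgrn1, a ligase that lowers Smo at the membrane, fell by 0.55, and Prkar1a, the regulatory subunit of protein kinase A, fell by 0.49. Both Prkar1a probes were called, the other at -0.37.

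Several of these calls did not hold under other settings. Kif7 and Mgrn1 kept theirs within the upper slide row (adjusted p = 0.0407 and 0.0450), and Dync2h1, Btrc, Csnk1a1 and Prkar1a did not. Mgrn1 and Prkar1a were not called under median centring, at -0.18 and -0.15. Leaving out WT replicate 3 ended the calls of Btrc (adjusted p = 0.0594), Prkar1a (0.0634), Csnk1a1 (0.135) and Dync2h1 (0.0767). Csnk1a1 was also lost without WT replicate 1 (0.0704) or 2 (0.0821), and Dync2h1 without WT replicate 1 (0.0646) or KO replicate 3 (0.0524). Ulk3, a kinase of Gli proteins, had 1.95, 0.38 and 0.71 in KO and 0.07, 0.12 and -0.49 in WT at its brightest probe and was not called (adjusted p = 0.0665). Its other probe was called lower, at -0.40 ± 0.12 (adjusted p = 0.0416), so the Ulk3 probes disagree in sign. As at the second Smo probe and at Ptch1, KO replicate 1 was the extreme array at the brightest Ulk3 probe. Kif3a and Ttc21b, named after their values were seen, also had probes that disagreed in sign. Their brightest probes gave -0.33 and 0.02, not called. Their other probes were called, at 0.39 (adjusted p = 0.0327) and -0.36 (adjusted p = 0.0309).

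Among 15 genes described as Hedgehog targets in mouse tissues 14 were tested, with 6 called higher, 1 called lower and a median difference of 0.20, against 13.8% called higher and 18.5% lower over all genes. Mycn, which drives proliferation, rose by 2.20 ± 0.17 (limma adjusted p = 0.0003), with ratios of 2.68, 2.49 and 2.51 in KO and 0.16, 0.73 and 0.18 in WT. Foxc2, a forkhead factor of mesenchyme, rose by 1.88 ± 0.30, Snai1, a mesenchymal repressor, by 1.21 ± 0.15, and the cyclin gene Ccnd2 by 0.99 ± 0.14. Foxc2 had 1.43, 1.31 and 1.24 in KO and 0.22, -0.75 and -1.13 in WT, and within the upper slide row its difference was 1.10 (adjusted p = 0.0239). Foxl1 and Bmp4, named after their values were seen, rose by 0.89 ± 0.18 and 0.58 ± 0.14. Sfrp1, a secreted Wnt inhibitor, fell by 1.10 on the log2 scale (adjusted p = 0.0088). Ccnd1 (0.15) and Foxf1 (0.04), often cited as targets, were not called. The calls of Ccnd2, Foxl1 and Bmp4 were lost within the upper slide row (adjusted p from 0.0562 to 0.164), that of Bmp4 also without WT replicate 1 or 3 (0.0698 and 0.0684), and that of Sfrp1 under median centring (-0.83, adjusted p = 0.0603).

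Ureteral mesenchyme and smooth muscle, the tissue in which Shh is known to act, was followed by 11 genes. Of the 10 tested, 2 were called higher and 0 lower, with a median difference of 0.32. The higher count is near the 13.8% of all genes called higher, and 18.5% of all genes were called lower. Tshz2, a zinc finger factor, rose by 1.30 ± 0.14 (limma adjusted p = 0.0008), and its other probe rose by 0.63. The smooth muscle actin gene Acta2 rose by 0.80 ± 0.20 (adjusted p = 0.0245), with ratios of 0.23, 0.08 and 0.32 in KO and -0.11, -0.93 and -0.73 in WT. WT replicate 1 lay apart from the other WT arrays, and within the upper slide row Acta2 differed by 0.32 (adjusted p = 0.330). The Acta2 call was also lost without KO replicate 3 (adjusted p = 0.0687), WT replicate 2 (0.0750) or WT replicate 3 (0.104). Tagln and Des differed by 0.63 and 0.59 and were not called (adjusted p = 0.0689 and 0.0714), and Tbx18 was not tested.

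**Figure D4:**
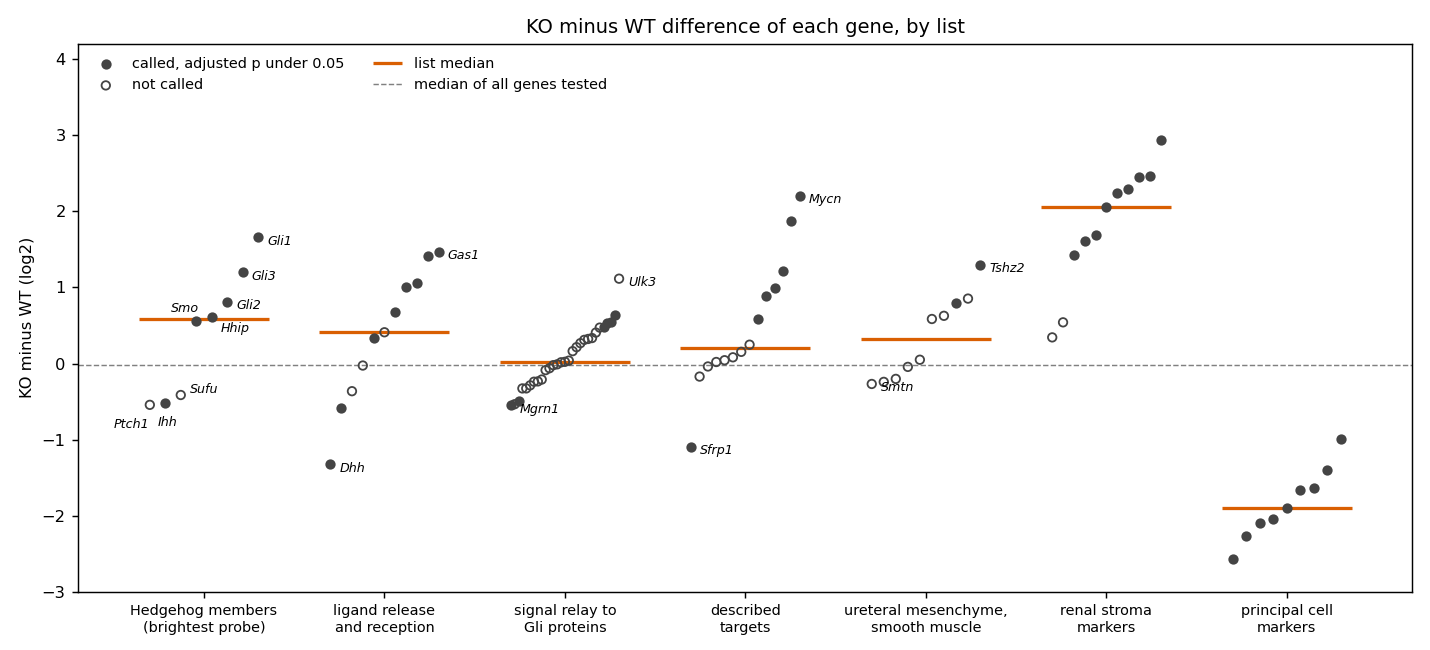
KO minus WT difference on the log2 scale (y axis) of each tested gene by its brightest probe, in the Hedgehog genes, 4 pathway lists and 2 marker lists (x axis), with filled points for called genes, open points for others, orange bars for list medians and a dashed line for the median of all genes tested. Gli1, Gli3 and Gli2 lie at 1.66, 1.20 and 0.81, the relay list centres on 0.02, and the renal stroma and principal cell markers centre on 2.06 and -1.90.

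Most markers of renal stroma and of nephron progenitors were also higher in KO cells. Of the renal stroma markers, 9 of 11 tested were called higher and 0 lower, with a median difference of 2.06. Over all 14752 genes tested, 13.8% were called higher and 18.5% lower. The list's median ratio was 1.46 to 1.59 on the KO arrays. It was 0.12 on WT replicate 1, which shared the slide row of the KO arrays, and -0.80 and -0.89 on WT replicates 2 and 3. All 11 were well above background on all 6 arrays. Their summed Cy5 signal, in units of each array's 75th percentile, was 130 to 138 in KO and 19.1 to 54.2 in WT. Of the nephron progenitor markers, 8 of 9 were called higher, with summed signals of 71.0 to 140 in KO and 30.6 to 37.2 in WT. The part of these cell types in the higher Gli1, Gli2, Gli3, Boc, Gas1 and Foxc2 was not tested. In such sorted bulk samples fewer cells of a type and less RNA per cell cannot be told apart.

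Markers of the labelled cell type were present in both groups, at lower ratios in KO. All 9 tested principal cell markers were well above background on all 6 arrays and called lower, with a median of -1.90 and summed signals of 22.4 to 28.3 in KO and 99.9 to 109 in WT. Scnn1g, the remaining marker, was not tested. Likewise 10 of 10 intercalated cell markers (median -2.42) and 7 of 7 ureteric stalk markers (median -1.63) were lower, and 0 of 7 ureteric tip markers were called. Endothelial markers, a cell type in which Dhh is known to be made, were lower in 6 of 7 cases (median -1.02), beside the lower Dhh, and their part in it was not tested. Immune cell markers were higher in 5 of 6 cases and lower in 1, while 4 of 4 tested erythroid and 5 of 5 loop of Henle markers were lower. Proximal tubule markers were lower in 3 of 8 cases, and 0 of 5 podocyte markers were called. These counts stand against 13.8% called higher and 18.5% lower over all genes tested.

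The genes most like Gli1 and Ptch1 over the 6 arrays were found by the root mean square difference of their ratios. For Gli1 these were Sema3a (0.114), Gfra2 (0.164), Cnrip1 (0.186), Tnnt1 (0.188) and Fgf10 (0.191). For Ptch1 they were Agpat1 (0.070), Nek8 (0.070), Gabbr2 (0.073), Stox2 (0.075) and Parm1 (0.084). These genes were picked for their likeness, so their own differences are no separate result.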

How the data were processed

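The labels and files give 2-colour Agilent arrays, while the series text calls the experiment single-colour. The deposited files hold spot and background intensities, processed intensities and their log10 ratio, per the file headers from Agilent Feature Extraction 10.7.3.1 (6.1 per the submitters' processing notes). Values of the deposited series matrix equal those log10 ratios within 0.00499. The deposited flags mark outlier, saturated and well-above-background spots. No dye was swapped.

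Median intensities were corrected by normexp (offset 50), turned to log2 ratios and normalised by loess within each array, with 3671 control spots at weight 0 of 62976. Outlier spots were dropped (196 to 403 per array), no spot was saturated, repeat spots were averaged, and 117 probes lacking a value on an array were left out. Differences are KO minus WT, fitted in limma 3.58.1 (R 4.3.3; lmFit and eBayes). The test is 2-sided with 4 residual and 3.88 prior degrees of freedom, and p-values were adjusted by Benjamini-Hochberg over all tested probes at a threshold of 0.05. Without adjustment 11410 probes had a p under 0.05. Errors are moderated standard errors with n = 3 arrays per group. Adjusted p-values in the text are limma's. Within the upper slide row means a fit with the row as a block.

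Symbols came from a RefSeq table of GRCm38.p6 by accession (27509 probes named, 28172 unnamed), used for names and promoter windows only. A gene in a list stands by its brightest tested probe. Named were every member probe, the 4 genes of a pathway list with the smallest unadjusted p, called genes in a direction that at most 5 took, and the 5 genes nearest to Ptch1 and to Gli1. Further genes are named as chosen later. The 9 genes, the lists and the tests were chosen with earlier results of these data known.

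On simulated data the fit over 29808 probes recovered 8%, 60%, 92% and 100% of 50 probes each changed by 0.5, 1, 2 and 3 log2 units, with 8 false calls. Only these probes were changed there, while 7550 were called in the data. The adjustment depends on that share, so these percentages are not the recovery to be had in the data. The number of arrays limits the precision. Alternatives were Agilent's ratios, the series matrix, median centring, Cy5 alone, normexp without offset, other filters, 1 probe per gene, the slide row or replicate number as a block, array weights, the median of spots (chosen after seeing the data), and each array left out.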

Additional observations from a re-analysis of the deposited data

How the results depend on the processing

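Gli1 and Gli3 kept their calls and directions under all settings run, and so did Gli2 except with the slide row as a block. Gli2 entered these fits through the KO arrays alone, and it was not tested where all 6 arrays had to be well above background. Of the 6 member probes called, 3 were called with Agilent's ratios, 3 with the series matrix and 2 with the slide row as a block. Leaving out 1 array gave 3 to 8 member calls, with 3 without KO replicate 3 or without any one WT array. All probes called numbered 7550, against 2182 with the slide row as a block and 3804 to 9495 with 1 array left out, the lowest counts being 4857 without WT replicate 1 and 3804 without WT replicate 3. That block leaves WT replicate 1 as the only WT array of its row. It gave 4 calls in ligand release and reception (8 without it), 2 in the relay list (6), 4 among the targets (7) and 1 in ureteral mesenchyme (2). Array weights gave 10319 calls over all probes, 9 among the 10 member probes (6 higher, 3 lower), 10 in the relay list and 4 in ureteral mesenchyme, where median centring and the replicate block also gave 4. Leaving out 1 array gave 2 (without WT replicate 3) to 9 (without KO replicate 1) calls in the relay list. In ureteral mesenchyme it gave 1 (without WT replicate 2 or 3) to 4 (without WT replicate 1). Under median centring the median difference over all probes was 0.22 (0.00 with loess), and 77.2% of its 6018 calls were higher (44.0% with loess). Ihh, at -0.35, was not called there. Signs turned for Ptch1 minus Shh (-0.36), at 0.49 with Agilent's ratios, 0.49 with the series matrix and 0.64 with Cy5 alone. Sufu probe A_52_P603184 turned to -0.15 with Agilent's ratios, -0.15 with the series matrix and -0.37 with Cy5 alone, and lay at -0.022 to 0.16 with 1 array left out. The causes were not tested.

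Replicate numbers are shared by KO and WT labels, but nothing ties same-numbered samples, whose deviations correlated at 0.14, 0.07 and 0.19. Each sample correlated best with its own number, a hint from the data and not from the design. With the replicate block 7240 probes and 5 member probes were called, and of the member calls that of Hhip was lost (adjusted p = 0.0546).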
